A study of Homo sapiens with 12 samples.

Results

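In 22Rv1 prostate cancer cells, 238 regions of RNA carried a NONO peak in at least 3 of the 4 peak lists from cells given SKBG-1(R) or SKBG-1(S) and in neither list from cells given DMSO. These regions were chosen by pooling the peaks of all 6 lists, joining peaks into 16419 regions wherever they overlapped by 1 nt or more on a strand, and keeping those present in 3 or 4 compound lists and absent from DMSO. They made up 1.45% of all merged regions. Because presence in the lists selected them, their absence from DMSO and their presence with both compounds are the rule itself and are given without a test. Cells were grown for 40 h and exposed for 4 h to 0.04% DMSO alone, or to 20 µM SKBG-1(R) or 20 µM SKBG-1(S) in 0.04% DMSO, so the vehicle was common to all groups. Each treatment had 2 replicates, each an immunoprecipitation with a rabbit antibody to NONO beside its own input library, after crosslinking with 400 mJ of UV light. The labels give 2 to 3 plates per condition and do not say that the replicates were separate cultures, so the p-values below reflect no more than how far these samples spread, and that spread may be technical. The RNA-seq and NONO knockout samples that the design names were not analysed here.

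NONO is an RNA-binding protein of the nucleus, a partner of SFPQ and PSPC1 in the DBHS family, and a component of paraspeckles, which form on the long noncoding RNA NEAT1. It contacts nascent transcripts and takes part in transcription, splicing and retention of RNA in the nucleus, so intronic sites are common for it. In eCLIP, UV light links proteins to the RNA they touch, and the fragments recovered with the protein are compared with an input library to find enriched stretches, called peaks. SKBG-1(R) and SKBG-1(S) are stereoisomers by their names, and the study's title speaks of small molecules directed at NONO, and 22Rv1 is an established human prostate cancer line.

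Few of the 238 regions could be read as sequence. The bases of 12 of them, outside annotated UTRs, were held whole by the GENCODE 29 transcripts or by the RefSeq promoter windows (GRCh38.p14) used here. The 6 below are the intronic ones in genes that the results turn on, with PTBP3 added as the other region with a peak in all 4 compound lists. Each is read 5′ to 3′ on the strand of the RNA, and capitals mark any match on that strand to the word AGGGA, to the word GGTAAG, to the word GTGAG or to the word GGGNGGG, where matches may overlap. CLOCK encodes a circadian transcription factor and its region is chr4:55546008-55546117 on the minus strand. PTBP3, a splicing repressor of the PTB family, has its region at chr9:112333033-112333103 on the minus strand. The CAPN15 region, in a calpain protease gene, is chr16:537672-537839 on the plus strand. The PTP4A1 region, in a phosphatase gene, is chr6:63573248-63573411 on the plus strand. MIRLET7BHG gives rise to let-7 microRNAs, and its region is chr22:46085821-46085887 on the plus strand. The region of the noncoding RP13-25N22.1 is chr11:1572522-1572632 on the plus strand.
CLOCK: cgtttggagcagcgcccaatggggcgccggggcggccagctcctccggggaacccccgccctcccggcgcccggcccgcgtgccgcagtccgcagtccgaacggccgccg
PTBP3: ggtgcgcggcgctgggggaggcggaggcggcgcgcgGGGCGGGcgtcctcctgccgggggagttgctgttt
CAPN15: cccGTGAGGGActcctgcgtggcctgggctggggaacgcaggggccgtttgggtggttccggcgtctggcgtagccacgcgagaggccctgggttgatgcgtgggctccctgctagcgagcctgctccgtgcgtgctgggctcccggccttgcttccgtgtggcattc
PTP4A1: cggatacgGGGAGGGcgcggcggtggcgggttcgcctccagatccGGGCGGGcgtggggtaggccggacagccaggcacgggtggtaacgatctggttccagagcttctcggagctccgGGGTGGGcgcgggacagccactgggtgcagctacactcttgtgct
MIRLET7BHG: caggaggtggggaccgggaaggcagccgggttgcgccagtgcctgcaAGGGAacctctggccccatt
RP13-25N22.1: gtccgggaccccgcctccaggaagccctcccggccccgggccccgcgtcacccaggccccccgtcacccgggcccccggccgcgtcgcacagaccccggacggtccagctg

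All 6 stretches were rich in G and C. The G and C share over the 12 regions held whole ran from 66.7% to 82.0%, with a median of 73.5%, and 9 of the 12 had more G than C. PTP4A1 held GGGNGGG 3 times and PTBP3 held it 1 time. CAPN15 held AGGGA 1 time, overlapping a match to GTGAG, and MIRLET7BHG held AGGGA 1 time. CLOCK and RP13-25N22.1 held none of the 4 words. Among the 1689 other regions whose central window was held by the same sources, 30.5% had GGGNGGG, 17.8% AGGGA, 13.3% GTGAG and 0.71% GGTAAG on the RNA strand, and on the opposite strand the shares were 14.6%, 18.9%, 8.05% and 0.77%. Those windows had a median G and C share of 70.3%. A comparison of words or base content over the whole set was void, because the sources hold transcripts and promoters only and gave such a window for 13.9% of the 238 regions.

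Presence in the lists was uneven. Of 796 regions with a peak in 3 or 4 compound lists, 238 (29.9%) had no DMSO peak, 401 (50.4%) had one in a single DMSO list and 157 (19.7%) in both. Of those in a single DMSO list, 140 were in replicate 1 and 261 in replicate 2. A peak in all 4 compound lists was found for 49 of the 238 regions, and 189 missed exactly 1 list. The list missed most often was SKBG-1(S) replicate 1, with 75 regions, then SKBG-1(S) replicate 2 with 50, SKBG-1(R) replicate 1 with 43 and SKBG-1(R) replicate 2 with 21. Both SKBG-1(R) lists held 174 of the regions and both SKBG-1(S) lists 113. The plot of regions by number of lists shows that those with no DMSO peak were a larger group among regions in 3 compound lists than among regions in all 4.

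**Figure D1:**
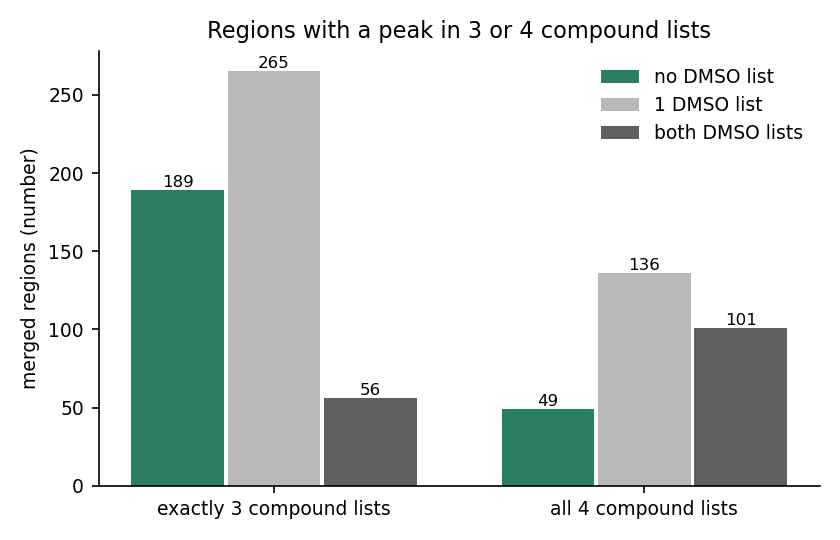
Number of merged regions (vertical axis) with a peak in exactly 3 or in all 4 compound lists (horizontal axis), divided by the number of DMSO lists that also held a peak. The 189 and 49 regions with no DMSO list (green bars) are those described here, beside 265 and 136 with 1 DMSO list and the remaining regions with both.

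The lists differed in length along with this pattern. DMSO replicates 1 and 2 held 669 and 3678 peaks, SKBG-1(R) 1953 and 14847, and SKBG-1(S) 1237 and 3967. No read counts were given, so depth is unknown, and a list holds only peaks with a log2 enrichment and a −log10 p of at least 3, so a region absent from DMSO may have had signal under those limits. With every list limited to its 669 strongest peaks the rule kept 32 regions. Without DMSO replicate 2 it would have kept 505, and without DMSO replicate 1 it would have kept 377.

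The 238 regions held 1030 peaks in all and had a median width of 115 nt (4 to 354 nt), against 149 nt (35 to 619 nt) for the 558 regions that also had a DMSO peak. A region runs between the outer ends of all its merged peaks, DMSO peaks included, so these widths are not like for like. In SKBG-1(R) the peaks inside the 238 regions numbered 247 in replicate 1 and 362 in replicate 2, and in SKBG-1(S) 186 and 235. The authors' log2 enrichment over input, taken as the highest peak of a region in a list and used only to describe regions within that list, had a median of 3.75 in SKBG-1(R) replicate 1, 3.88 in SKBG-1(R) replicate 2, 3.76 in SKBG-1(S) replicate 1 and 3.55 in SKBG-1(S) replicate 2. The 558 regions with a DMSO peak had medians of 4.03, 4.07, 3.91 and 3.86 in the same order, above the 238 in every list. A wider region can hold more peaks from which the highest is taken. These medians and the percentiles below are thus not like for like either. Ranked by the authors' −log10 p within its own list, the median region stood at the 50.0th percentile of the SKBG-1(R) replicate 1 list, the 85.8th of replicate 2, the 38.1st of SKBG-1(S) replicate 1 and the 77.0th of replicate 2, and the 558 regions stood at the 62.8th, 89.6th, 65.3rd and 87.8th.

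**Figure D2:**
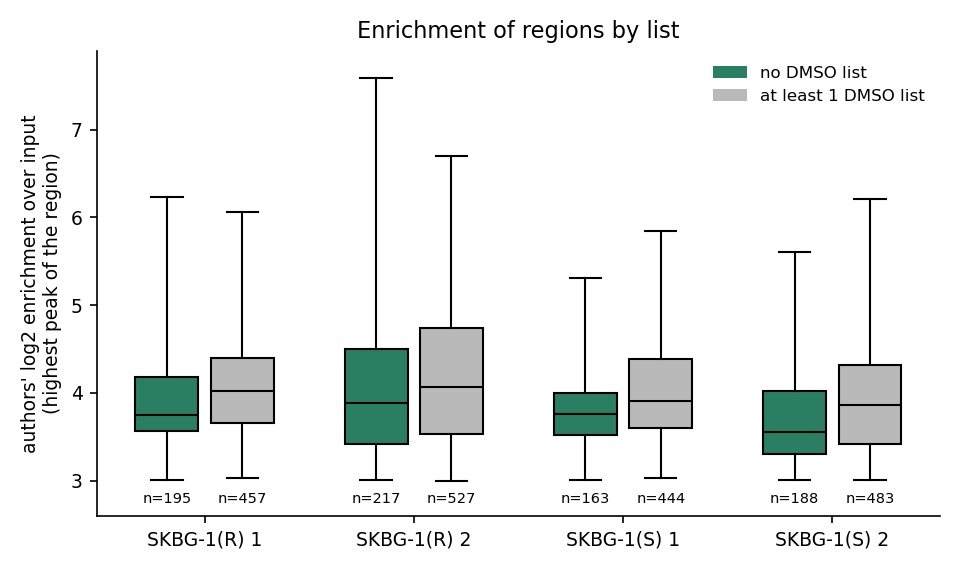
The authors' log2 enrichment over input (vertical axis) of the highest peak of each region in each compound list, for regions with no DMSO peak (green) and with at least 1 (grey). Boxes span the quartiles with the median as a line, whiskers reach the lowest and highest value, n is the number of regions with a peak in that list, and the green medians (3.75, 3.88, 3.76 and 3.55) lie under the grey ones.

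Many of the regions lay close to the limit for entering a list. The value in a region's weakest list had a median of 3.39 and ranged from 3.00 to 4.28. It was under 3.2 in 68 regions and under 3.5 in 154, and 7 regions kept a log2 enrichment of at least 4 in every list that held them. Just outside the rule, 917 regions with a peak in 1 list of each compound and in no DMSO list had a median weakest value of 3.45. That value is the lowest over fewer lists than in the set, so the 2 medians are not like for like. In the set the median was 3.41 for regions in 3 lists and 3.33 for those in 4. Within a region the gap between its highest and lowest list had a median of 0.89 on the log2 scale. Of the 174 regions in both SKBG-1(R) lists, 87 were higher in replicate 2, and of the 113 in both SKBG-1(S) lists 39 were.

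The regions were mainly intronic, as merged regions were in general, and many lay near a transcript start. Introns held 208 of 238, or 87.4% (95% Wilson interval 82.6 to 91.0, counting error only), beside 90.0% of all merged regions. The 5′ UTRs held 17 (7.14%, beside 4.63% of all regions), coding exons 6, noncoding exons 6, and 1 was intergenic. No region lay in a 3′ UTR, and the Wilson interval for 0 of 238 reaches 1.59%, which includes the 1.58% of all merged regions that did. The authors' class of proximal introns, for which the labels give no definition, held 91 regions, or 38.2% (32.3 to 44.5). That share was 37.8% (33.9 to 41.9) for the 558 regions with a DMSO peak, 27.0% for the 917 just outside the rule, and 19.0% over all merged regions. Intronic regions of the set were centred a median of 913.5 nt from the nearest annotated start of their gene, and 51.4% lay within 1000 nt of one. For the 558 the median was 944.5 nt with 51.5% within 1000 nt, and over all merged regions it was 6096 nt. In class and in distance to a start, the set and the 558 regions thus had close values, as the plot of distances shows.

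**Figure D3:**
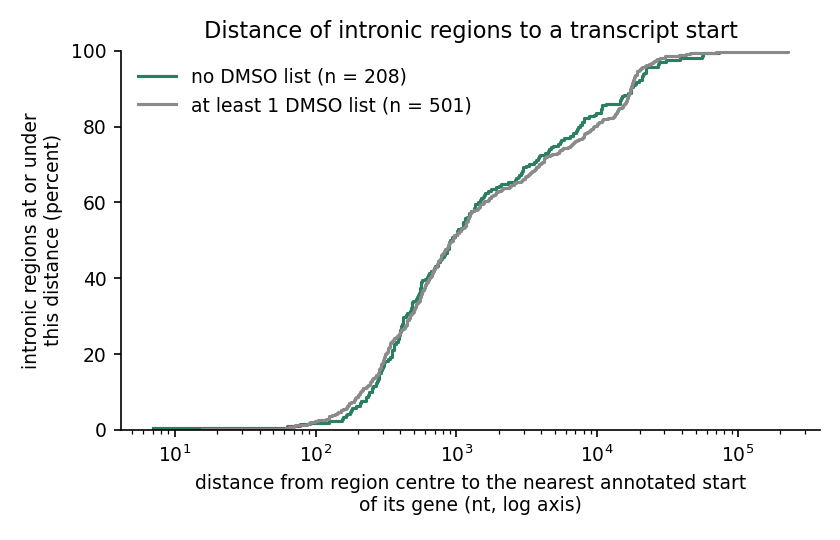
Cumulative percent of intronic regions (vertical axis) at or under a given distance from the region's centre to the nearest annotated transcript start of its gene (horizontal axis, nt, log scale). The curve of the regions with no DMSO peak (green, n = 208, median 913.5 nt) and that of the regions with at least 1 (grey, n = 501, median 944.5 nt) run together.

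Most of the regions had a DMSO peak nearby. The gap from a region to the nearest DMSO peak on its strand had a median of 195 nt. It was at most 50 nt for 51 regions, at most 100 nt for 77 and at most 500 nt for 170 (71.4%, Wilson interval 65.4 to 76.8), and 3 regions, in ZFHX3, UNC13A and CTBP1, touched one end to end. Of the 917 regions just outside the rule, 504 (55.0%, 51.7 to 58.2) were within 500 nt. Requiring no DMSO peak within 500 nt left 68 regions. The regions also clustered among themselves, with 91 (38.2%) within 1000 nt of another, and 14 touching another end to end. Neighbouring regions in a transcript are thus not independent sites. By chromosome, 35 (14.7%) were on chromosome 16 and 29 (12.2%) on 19, close to the 12.9% and 11.9% of all merged regions there. Chromosome 22 held 27 (11.3%, beside 7.13% of all regions) and chromosome 11 held 20 (8.40%, beside 5.46%). Of the regions in at least 3 compound lists that also had a DMSO peak, 13.4% lay on chromosome 22 and 4.30% on chromosome 11. The higher share on chromosome 22 was thus not particular to the set. On chromosome 22, MIRLET7BHG held 12 of the set and C22orf34 held 5. On chromosome 11, CCND1 held 7 and RP13-25N22.1 held 6. No region of the set was on X, which held 1.57% of all regions.

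The strongest were 8 regions present in all 4 compound lists with the highest enrichment in their weakest list. A coding exon region of PSD, which encodes an exchange factor for ARF GTPases, lay at chr10:102409017-102409273 on the minus strand. Its log2 enrichment was 4.16 and 5.55 in SKBG-1(R) replicates 1 and 2 and 4.09 and 5.61 in SKBG-1(S) replicates 1 and 2. Both replicate 2 values were the higher, and the 2 compounds' values overlapped. ANKRD11 encodes a chromatin regulator, and its proximal intron region at chr16:89490011-89490059 stood at 5.21 and 4.14 in the SKBG-1(R) lists, and 4.28 and 4.05 in the SKBG-1(S) lists. The CLOCK region printed above stood at 4.14, 3.97, 4.05 and 3.90 in the same order, the most even of the 8. A proximal intron region of CAPN15 at chr16:528036-528255 stood at 4.32 and 5.37 under SKBG-1(R) and 3.89 and 4.62 under SKBG-1(S).

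TRIO, an exchange factor for small GTPases, had a distal intron region at chr5:14144548-14144890 with values of 4.43 and 3.75 in the SKBG-1(R) lists, and 3.89 and 4.13 in the SKBG-1(S) lists. UNKL, a zinc finger and RING gene related to unkempt, held 2 of the 8, which abut at chr16:1374184-1374345 and chr16:1374346-1374512 on the minus strand. The first stood at 4.18 and 3.67 under SKBG-1(R) and 4.07 and 4.02 under SKBG-1(S), and the second at 4.43 and 4.38 and at 4.60 and 3.67. The last, in an intron of the noncoding RP5-1103G7.4 at chr20:325926-326036, stood at 3.66 and 4.45 and at 4.24 and 4.04. In the plot of these 8 regions the values of the compounds overlap in each of them. The nearest DMSO peak was 16 nt away for TRIO, 24 nt for ANKRD11, 45 nt for RP5-1103G7.4, 46 nt for CLOCK, 69 nt for CAPN15, 331 nt for PSD, and 619 and 452 nt for UNKL.

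**Figure D4:**
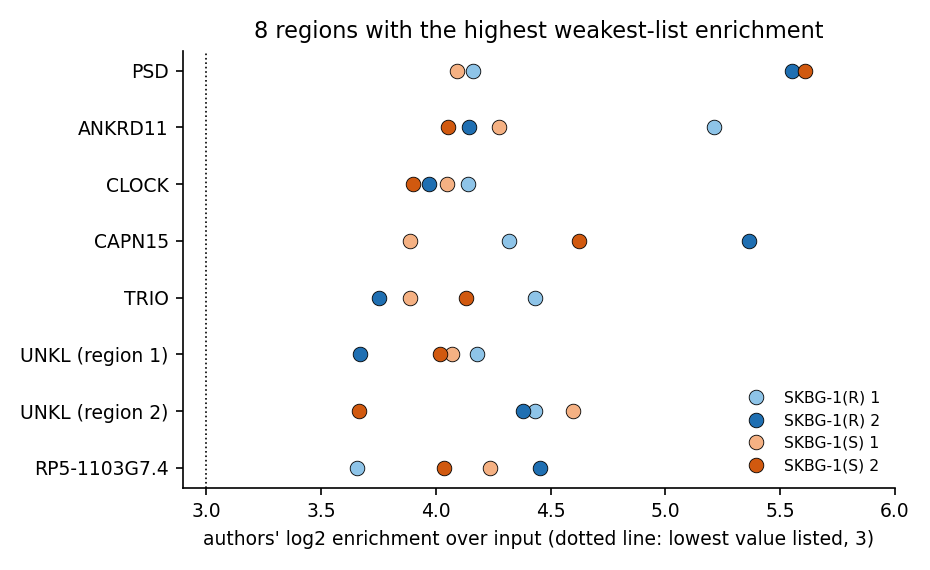
The authors' log2 enrichment over input (horizontal axis) in each of the 4 compound lists (coloured points) for the 8 regions with the highest value in their weakest list. The weakest values run from 3.66 in RP5-1103G7.4 to 4.09 in PSD, and the colours of the compounds are mixed along each row.

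Named genes numbered 145 over 237 of the regions, which is 8.58% of the 1689 genes with any peak, and 133 of the 145 were protein coding. A single region was found in 102 genes, 2 in 29 and 3 or more in 14, and those 14 held 77 regions. Counts of peaks per gene follow the length of the lists, and the rule itself sets part of any excess with the compounds, so they are given without a test against DMSO. MIRLET7BHG had the most, 12 regions between chr22:46074765-46108429. Its peaks numbered 58 and 42 with DMSO, 64 and 365 in the SKBG-1(R) lists, and 83 and 50 in the SKBG-1(S) lists, so the gene was crowded with peaks in every list, and 71 of its 310 merged regions had a DMSO peak. Of its 12 regions 8 were missed by SKBG-1(S) replicate 2 and 3 by SKBG-1(R) replicate 1. One of them lay 118 nt from the hairpin of MIR3619.

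UNKL and ANKRD11 followed with 8 regions each. In UNKL they fell within 5190 nt of the gene (chr16:1374184-1379373, minus strand), and 5 of the 8 had a peak in all 4 lists. UNKL peaks numbered 0 and 8 with DMSO, 27 and 77 under SKBG-1(R) and 24 and 24 under SKBG-1(S), and every compound list was above both DMSO lists. Per 10000 peaks of the list, its level was 0 and 21.8 with DMSO, 138 and 51.9 in the SKBG-1(R) lists, and 194 and 60.5 in the SKBG-1(S) lists, so the groups stayed apart on that scale too. In ANKRD11 the 8 regions were spread over 188308 nt (chr16:89301932-89490239). Its peaks numbered 4 and 27 with DMSO, 64 and 261 under SKBG-1(R) and 19 and 84 under SKBG-1(S), so that SKBG-1(S) replicate 1 fell between the DMSO lists. Per 10000 peaks of the list ANKRD11 stood at 59.8 and 73.4 with DMSO and at 154 to 328 in the compound lists. Its groups thus stayed apart on that scale.

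CCND1, the gene of cyclin D1, a driver of the G1 to S step of the cell cycle, had 7 regions within 5833 nt (chr11:69644810-69650642), all intronic. None had a peak in all 4 lists, as 6 were missed by SKBG-1(S) replicate 2 and 1 by SKBG-1(S) replicate 1. CCND1 peaks numbered 15 and 11 with DMSO, 56 and 169 in the SKBG-1(R) lists, and 21 and 4 in the SKBG-1(S) lists. SLC7A5 imports leucine and other large amino acids, and it had 6 regions. Its peaks numbered 10 and 50 with DMSO, 12 and 225 under SKBG-1(R) and 30 and 72 under SKBG-1(S), and these groups overlapped. RP13-25N22.1 also had 6, of which 5 were missed by SKBG-1(R) replicate 1. Its peaks numbered 3 and 5 with DMSO, 7 and 18 in the SKBG-1(R) lists, and 13 and 19 in the SKBG-1(S) lists, with every compound list above both DMSO lists in number. Per 10000 peaks of the list these groups overlapped, at 44.8 and 13.6 with DMSO, 35.8 and 12.1 for SKBG-1(R), and 105 and 47.9 for SKBG-1(S).

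The noncoding C22orf34 and DAZAP1, which encodes an RNA-binding protein found in paraspeckles, had 5 regions each. C22orf34 peaks numbered 30 and 137 with DMSO, 28 and 235 under SKBG-1(R) and 54 and 83 under SKBG-1(S), and 118 of its 231 merged regions had a DMSO peak. DAZAP1 peaks numbered 2 and 15 with DMSO, 7 and 71 in the SKBG-1(R) lists, and 9 and 22 in the SKBG-1(S) lists. KIAA0232 and DLEU2, a noncoding host of microRNAs, had 4 regions each. KIAA0232 peaks numbered 1 and 1 with DMSO, 6 and 9 under SKBG-1(R) and 4 and 7 under SKBG-1(S), all compound lists above DMSO in number, and its 4 regions sat within 819 nt (chr4:6782847-6783665). Per 10000 peaks the KIAA0232 groups overlapped, as DMSO replicate 1 stood at 14.9 and SKBG-1(R) replicate 2 at 6.06. DLEU2 had 3 and 14, 6 and 26, and 10 and 26 in the same order of groups, which overlapped. CAPN15 and GRB10, an adaptor of the insulin receptor, had 3 regions each. GRB10 peaks numbered 0 and 3 with DMSO, 8 and 19 in the SKBG-1(R) lists, and 8 and 12 in the SKBG-1(S) lists. Per 10000 peaks GRB10 stood at 0 and 8.16 with DMSO and at 12.8 to 64.7 in the compound lists, so its groups stayed apart. CAPN15 had 4 and 29, 2 and 129, and 7 and 12, with the groups overlapping.

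**Figure D5:**
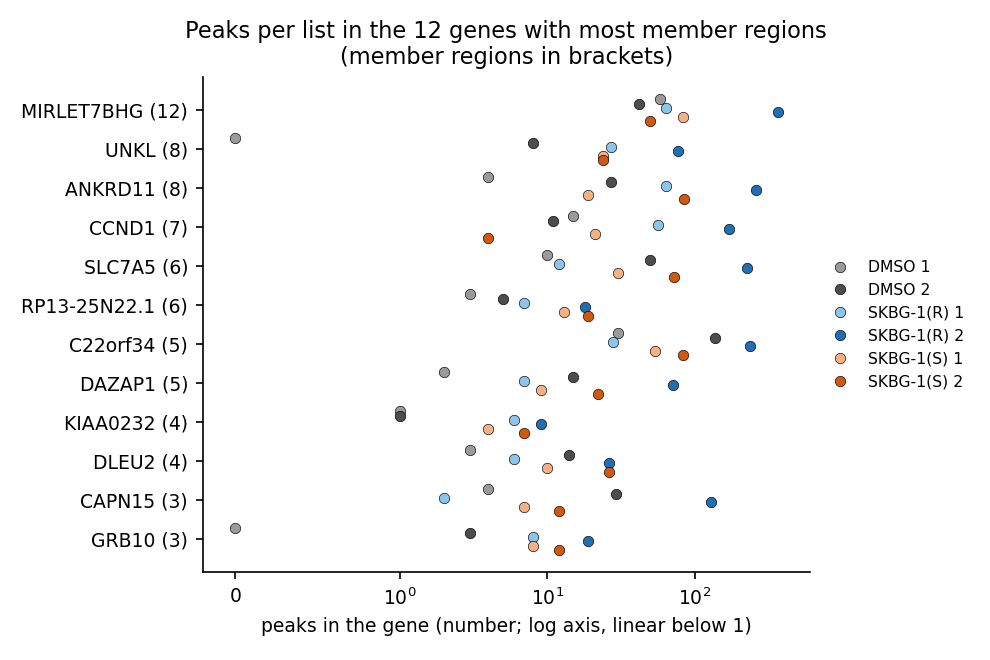
Peaks in each list (horizontal axis, number, log scale that is linear below 1) for the 12 genes with most of the regions, whose number is in brackets after the gene. Both DMSO points (grey and black) lie left of all 4 compound points in UNKL, RP13-25N22.1, KIAA0232 and GRB10, and the groups overlap in the other 8 genes. Scaled to the length of the lists, they stay apart in UNKL, GRB10 and ANKRD11 and overlap in the other genes shown, RP13-25N22.1 and KIAA0232 among them.

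Among lists of genes, those linked to the integrated stress response and to ATF4 had the largest share with a region, 5 of the 7 that had any peak (71.4%), against 8.58% over all genes with a peak. The list and the regions were chosen with earlier results known, so the share is a description. Genes with many peaks held a region more often. Of the 479 genes with at least 10 peaks 125 did, against 145 of all 1689. The shares of lists here and below were not adjusted for the number of peaks per gene, so 8.58% is not a like-for-like baseline. TRIB3, a stress-induced pseudokinase, held 2 abutting proximal intron regions at chr20:381425-381674 and chr20:381675-381961, both in all 4 lists. The second stood at a log2 enrichment of 6.23 and 4.26 under SKBG-1(R) and 4.45 and 3.48 under SKBG-1(S). TRIB3 peaks numbered 0 and 1 with DMSO, 9 and 13 in the SKBG-1(R) lists, and 8 and 8 in the SKBG-1(S) lists, and all compound lists were above DMSO. Per 10000 peaks TRIB3 stood at 0 and 2.72 with DMSO and at 8.76 to 64.7 in the compound lists. CARS, the cysteinyl-tRNA synthetase gene, had 2 regions and peaks of 0 and 0, 4 and 23, and 2 and 8. SLC7A1, a transporter of cationic amino acids, had 1 region in all 4 lists and peaks of 0 and 0, 10 and 8, and 3 and 2. ATF3, a stress-induced transcription factor named after its values were seen, had 1 region in all 4 lists at chr1:212609245-212609353 and peaks of 0 and 0, 1 and 5, and 2 and 3.

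Noncoding and microRNA host transcripts had a region in 6 of 10 genes with a peak (60.0%), led by MIRLET7BHG, C22orf34 and DLEU2. LINC-PINT, a p53-regulated long noncoding RNA, had 2 exonic regions and peaks of 0 and 4 with DMSO, 12 and 18 under SKBG-1(R) and 4 and 12 under SKBG-1(S). Of cytoskeleton and adhesion genes 8 of 26 (30.8%) had a region. ARHGEF2, a microtubule-associated exchange factor for small GTPases, had 2 in all 4 lists and peaks of 0 and 0, 4 and 13, and 4 and 9. ACTN4, an actin crosslinker, had 2 regions and peaks of 0 and 0, 22 and 10, and 2 and 7. ACTB, the gene of beta-actin, had 1 region in all 4 lists, with values of 3.01 to 3.45, near the lower limit of the lists.

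A list named for signalling and phosphatases had a region in 8 of 30 genes (26.7%), with 20 regions, of which UNKL alone held 8. SPRED2, an inhibitor of the Ras pathway, had 2, and ATXN1 had 2. That list is broad, and not each of its genes, ATXN1 among them, encodes a signalling protein or a phosphatase. Chromatin regulators had one in 10 of 42 (23.8%). MBD3, a subunit of the NuRD complex, had 2 regions in its 5′ UTR, both in all 4 lists. KDM6B, a histone demethylase, and DOT1L, a histone methyltransferase, had 2 each. Paraspeckle proteins had a region in 2 of 9 (22.2%), DAZAP1 and RBM14, each with a DMSO peak elsewhere in the gene. Lower shares were found for prostate cancer genes, 2 of 13 (15.4%, ZFHX3 and SPDEF), developmental and growth transcription factors, 4 of 28 (14.3%, ZFHX3, NFIX, SPDEF and CUX1), translation and RNA turnover, 2 of 15 (13.3%, PUM2 and LARP4B), splicing factors, 1 of 11 (9.09%, CELF1), and zinc finger genes, 3 of 34 (8.82%, ZBTB7A, ZNF609 and ZNF710). Cell cycle and repair genes had 1 of 3 (CCND1), and electrophile and heat stress genes 1 of 4. That 1 was NFE2L2, the regulator of the antioxidant response, with 1 region and peaks of 0 and 0, 1 and 7, and 0 and 1. Of 8 neuronal channel and vesicle genes with a peak, 0 had a region.

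In 115 of the 145 genes a DMSO list held a peak elsewhere in the gene, and in 57 both did. The other 30 genes (20.7%) had no DMSO peak at all, against 829 of the 1689 genes with any peak (49.1%). The 2 shares are not like for like. By the rule each of the 145 genes has peaks in at least 3 compound lists, which a gene of the 1689 need not have. These 30 held 35 of the regions, 10 of them in all 4 compound lists, and had 3 to 41 compound peaks in all with a median of 9.5. They included ACTN4, ACTB, ARHGEF2, ATF3, ATXN1, CARS, NFE2L2, PTP4A1, PUM2, SLC7A1 and ZNF609, and 14 of the 30 had a peak in all 4 compound lists. EEF1A1 was among them with 2 abutting 5′ UTR regions of 4 and 18 nt, absent from SKBG-1(R) replicate 2. The share of such genes was 28.6% with every list at the length of the shortest and 59.6% without DMSO replicate 2. As a check of the cell type, among luminal prostate genes TMPRSS2 had 0 to 2 peaks in each list, and 8 others, KLK3 among them, and 16 markers of other cell types had 0 in every list. None held a region. Peak lists do not measure expression.

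The 2 stereoisomers were compared at the same dose and time, 20 µM for 4 h. The 238 regions took 12.6% and 2.44% of the peaks of SKBG-1(R) replicates 1 and 2 and 15.0% and 5.92% of those of SKBG-1(S). The means were 7.54% and 10.5%, a difference of -2.94 percentage points that was smaller than the gap between replicates of either compound. Presence in these same 4 lists chose the regions, and the share was lower in longer lists, so these shares are a description with no test. The replicate 1 lists, the shorter of each compound, had the higher share in both.

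Peaks per gene were compared by limma over 479 genes with at least 10 peaks in the 6 lists, and 0 genes passed an adjusted p of 0.05 (0% of those tested), with a smallest adjusted p of 0.995. At an unadjusted p under 0.05 there were 5 genes (1.04%), of which 1, PTP4A1, held one of the regions. Of the 145 genes 125 were tested and 20 had too few peaks, and the peaks that chose the regions are among those counted. Their log2 fold changes of SKBG-1(R) over SKBG-1(S), on peaks per 10000 with a prior count of 2, ran from -2.20 to 1.88 with a median of -0.21, beside -0.08 over all 479. The reach of a 95% interval to either side had a median of 2.24 on that scale, so differences of several-fold between the compounds in either direction were within the error and the test does not show that they act alike. Without SKBG-1(R) replicate 1 the median log2 fold change over the 448 genes tested was 0.11. There the lone SKBG-1(R) list is assumed to vary like the other groups, so no count of genes is given.

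The gene values behind that comparison were as follows, for genes picked by the smallest p among the 125 tested. Their intervals are not adjusted for that choice, nor for the use of the same peaks to choose the regions. An interval that leaves out 0 is thus no sign of a difference here. PTP4A1 had 0 and 0 peaks with DMSO, 0 and 2 under SKBG-1(R) and 3 and 6 under SKBG-1(S), and its log2 fold change was -2.20 (SE 0.997, interval -4.27 to -0.13, limma adjusted p = 0.995). TNK2, a tyrosine kinase gene with 2 regions in its 5′ UTR, had 3 and 3, 0 and 14, and 4 and 9 peaks and stood at -1.99 on the same scale (interval -4.27 to 0.29). The other genes that were lower with SKBG-1(R) in both same-numbered pairs of lists and had the smallest p were DLEU2 at -1.47, RP13-25N22.1 at -1.55 and GPR35, a receptor gene, at -1.37. In the opposite direction CCND1 had the smallest p, with a log2 fold change of 1.88 (SE 1.10, interval -0.41 to 4.17). That value was 0.09 without SKBG-1(S) replicate 2 and 3.72 without SKBG-1(S) replicate 1. It was followed by PLEKHA6 at 1.62, SOGA1 at 1.61, TCF20, a transcriptional coregulator gene, at 1.60 and LINC00511, a noncoding RNA gene, at 1.72. Without SKBG-1(S) replicate 1 these 4 stood at 0.94, 0.48, 0.94 and 0.91, and without SKBG-1(S) replicate 2 SOGA1 stood at 2.78 and LINC00511 at 2.59. Among the genes lower with SKBG-1(R), RP13-25N22.1 stood at -0.85 without SKBG-1(R) replicate 2 and TNK2 at -1.21 without SKBG-1(R) replicate 1. None of these 10 passed the threshold. Without scaling to the length of the lists the median over all genes moved from -0.08 to 0.75, and 23 of 43 tested genes named by the rule changed sign. These 10 did not, but they had been chosen for 1 sign in both pairs.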

How the data were processed

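NONO eCLIP was done in 22Rv1 cells, with 6 immunoprecipitations against 6 input libraries. The authors deposited 1 peak list per replicate, each peak with a −log10 p and a log2 enrichment over input, gene and class of region. The submitters' processing notes list the tools STAR 2.4.0i and cutadapt 1.9, and the builds hg19, hg38 and GRCh38. The peak caller is not given in the sources used here. Positions are GRCh38: 237 of the 238 regions lay inside their gene of GENCODE 29. All deposited log2 enrichments were at least 3, as were the −log10 p values, and no reads were given, so depth is unknown. Groups came from the sample titles. Peaks sharing at least 1 nt on a strand were merged, and a region took the gene and class of most of its peaks. Genes were tested with limma 3.58.1 in R 4.3.3, with a trended prior variance and Benjamini-Hochberg adjustment, all 6 lists in 1 fit, tested on simulated data. Shares have Wilson intervals. The exact test planned for the share of peaks in the regions is not reported, because presence in those lists chose the regions. The values of 1 luminal marker are not reported here. Sequences came from GENCODE 29 transcripts and RefSeq promoters. The 238 regions, gene lists and tests were chosen with earlier results of these data known. Genes were named by a rule: the 8 strongest regions in all 4 compound lists, the 12 genes with most regions, up to 4 genes of each list, and the 5 host genes of smallest p in each direction between the compounds with 1 sign in both pairs of equal number. Alternatives were stricter limits, other overlaps, equal list lengths, other prior counts and filters, a replicate block, and leaving out each list.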

Additional observations from a re-analysis of the deposited data

How the results depend on the processing

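The number of regions moved with the limits on the lists. It was 132 with a −log10 p of at least 5, 55 with a log2 enrichment of at least 4, 32 with every list at the length of the shortest, 49 when all 4 compound lists were required and 68 with no DMSO peak within 500 nt. Leaving out each list in turn, with 3 compound lists still required, gave 76 to 505. An overlap of 10 nt gave 295 and joining peaks up to 50 nt apart gave 165. Fewer peaks or fewer lists enter by construction, and the cause beyond that was not tested. Of the 238 regions 86 were met again with the stricter −log10 p, 13 with the stricter enrichment and 22 at equal lengths. The share of the regions in introns ran from 82.6% to 91.3% over these settings and the share in proximal introns from 35.9% to 59.4%. The share of host genes with no DMSO peak was 59.6% without DMSO replicate 2.

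The difference between the stereoisomers in the share of peaks, SKBG-1(R) minus SKBG-1(S), ran from -5.39 to 0.84 percentage points when each compound list was left out. The difference was 0.57 without SKBG-1(R) replicate 2 (76 regions) and 0.84 without SKBG-1(S) replicate 1 (120 regions). With the replicate block it stayed -2.94 (-2.39 and -3.49 in the pairs), with no test since the lists chose the regions. In limma 0 genes passed with the replicate block too (33 at an unadjusted p under 0.05), and 0 under every other alternative except that leaving out lists gave 0 to 23. Same-numbered lists of the compounds deviated together over genes (correlation 0.42 over 479 genes, 2 pairs), but the lists share only a number. The log2 fold changes of the 10 genes named between the compounds kept their sign under each alternative that could test them. These genes were chosen from the same lists for 1 sign in both pairs and a small p. The kept sign is thus largely set by that choice and is no support for a difference.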
